A study of Mus musculus with 7 samples.

Results

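The open chromatin of 10 genes of the cell cycle inhibitor and p53 pathways was examined in HPC7 cells: the cyclin-dependent kinase inhibitors Cdkn1a, Cdkn1b, Cdkn2a, Cdkn2b, Cdkn2c and Cdkn2d, the tumour suppressors Trp53 and Rb1, the p53 antagonist Mdm2, and Btg2. The genes were chosen by name out of 21938 protein-coding genes, and every open-chromatin region (OCR) that overlapped a gene or the 20 kb on either side of it was taken. This gave 102 OCRs of the 144931 obtained by merging the peaks of all libraries. HPC7 is a mouse hematopoietic progenitor line that grows in stem cell factor, and the 7 bulk ATAC-seq libraries (numbered 1, 2 and 4 to 8) all came from it, in 1 labelled condition with no genotype or treatment to compare. The study prepared each library from its own culture batch and used them as a deep reference profile of the line's open chromatin, so the tests below measure the spread between batches of a single line and not between animals. Inside the lists the peak names begin with VD in 3 libraries and with EtOH in 4, which the labels do not explain, and the libraries were taken as 1 group.

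The members act at a shared gate. Cdkn1a (p21) and Cdkn1b (p27) bind and block several cyclin-dependent kinases, whereas the INK4 proteins made by Cdkn2a, Cdkn2b, Cdkn2c and Cdkn2d block the kinases that pair with D-type cyclins and so keep the retinoblastoma protein, made by Rb1, bound to E2F factors. Cdkn2a also makes ARF from a separate first exon, a protein that holds back Mdm2, the ubiquitin ligase that degrades p53, and p53 (Trp53) in turn switches on Cdkn1a, Mdm2 and Btg2. In hematopoietic stem and progenitor cells Cdkn2a and Cdkn2b are known as genes that Polycomb proteins keep silent, while Cdkn1b and Cdkn2c are known for holding progenitors in quiescence.

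In all 7 libraries an OCR lay within 3 kb of an annotated transcript start, called the promoter from here on, in 9 of the 10 genes (60.8% of all protein-coding genes). Cdkn2b was the exception, with no promoter OCR in any library (32% of all protein-coding genes). Intensity is the fold enrichment that the peak caller gave for the summit of a peak over the background, and it was ranked within each library as a percentile, the share of that library's peaks with a lower fold enrichment. The promoter was in the top 25% of every library for 8 of the 10 genes (50.3% of all protein-coding genes). Cdkn2a, whose promoter OCR lay in the middle of the ranking, was the gene with an OCR that fell short of this.

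The sequences before the 3 start sites of the Cdkn2a and Cdkn2b region are shown here because these neighbours differed in having an OCR at all. They are RefSeq promoters on GRCm38.p6, written 5′ to 3′ on the minus strand of chromosome 4, which all 3 transcripts use, and cut where an annotated exon begins, with CpG dinucleotides in capitals. The ARF promoter (chr4:89294654-89294869) had an OCR in all libraries, whereas no library had a peak over the Ink4a promoter (chr4:89282193-89282442) or the Cdkn2b promoter (chr4:89311040-89311282).
Cdkn2a, ARF start: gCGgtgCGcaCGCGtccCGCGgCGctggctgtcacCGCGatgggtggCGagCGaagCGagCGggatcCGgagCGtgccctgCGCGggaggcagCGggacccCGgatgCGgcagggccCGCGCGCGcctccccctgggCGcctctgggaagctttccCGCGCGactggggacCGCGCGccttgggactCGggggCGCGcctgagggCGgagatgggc
Cdkn2a, Ink4a start: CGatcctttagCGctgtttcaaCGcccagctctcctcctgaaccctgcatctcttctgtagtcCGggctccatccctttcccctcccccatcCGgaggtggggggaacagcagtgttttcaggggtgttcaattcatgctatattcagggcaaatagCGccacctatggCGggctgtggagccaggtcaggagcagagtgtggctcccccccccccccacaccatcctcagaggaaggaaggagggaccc
Cdkn2b: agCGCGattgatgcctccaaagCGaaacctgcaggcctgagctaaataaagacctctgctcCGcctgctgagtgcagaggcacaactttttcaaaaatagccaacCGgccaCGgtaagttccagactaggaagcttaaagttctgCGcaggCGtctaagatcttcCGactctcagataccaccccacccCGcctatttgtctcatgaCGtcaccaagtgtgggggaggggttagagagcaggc
The printed bases held 35 CpGs before the ARF start, 7 before the Ink4a start and 11 before the Cdkn2b start. Over the full 300 bases that RefSeq's table gives for a promoter, 250 before and 50 after the start, the observed over expected CpG ratio was 1.04 for ARF, 0.442 for Ink4a and 0.722 for Cdkn2b, and the GC content was 77%, 60.3% and 57.7%. A promoter was called CpG-rich at a GC content of at least 50% and a ratio of at least 0.6. The table held 12 promoters for 9 of the 10 genes, of which 8 were CpG-rich, and 7 of these 8 had a peak over the 300 bases in all libraries, as had 81.2% of the CpG-rich promoters of protein-coding genes. Of the 4 that were not CpG-rich 3 had one (the first Cdkn1a start, a Cdkn2c start and Trp53) and Ink4a had none, compared with 25% of such promoters of protein-coding genes in all libraries. The Cdkn2b promoter was the CpG-rich one without a peak, as were 16.9% of the 9417 CpG-rich promoters of protein-coding genes.

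A second set of sequences is shown because they match the paired decamer to which p53 is known to bind. A match had both 4-base cores exact, shown in capitals, 0 or 1 base between the decamers and at most 2 mismatches elsewhere, and it was looked for in the 300 bases centred on the summit of each OCR. Of the 102 OCRs 4 held a match, compared with 0.464% of all merged OCRs, and 5 held one when the whole OCR was searched, compared with 1.16%. The 5 matches are written on the strand of Cdkn1a, Mdm2 or Rb1, the member each lies beside.
Cdkn1a neighbour Trp53cor1: aggCAAGcccgggCAAGgcc
Cdkn1a, first start: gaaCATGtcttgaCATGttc
Mdm2, upstream: aaaCATGtacaaaCATGtcc
Rb1, intron: aaaCTAGcctggaCAAGaca
Rb1, Lpar6: aagCATGttcgcgCTTGctg
The Cdkn1a match (chr17:29090928-29090947, plus strand) was centred 38 bp before the first Cdkn1a start and 24 bp from the summit of its OCR, with 1 mismatch. The match in an exon of Trp53cor1 (chr17:29079039-29079058), the noncoding RNA gene known as lincRNA-p21, lay 52 bp from the summit of an OCR 11.9 kb from Cdkn1a. The Mdm2 match (chr10:117717736-117717755, minus strand) was centred 2 bp from the summit of an intergenic OCR upstream of the gene. Neither the OCR at the Mdm2 promoter nor any OCR of Btg2 held a match, also when the whole OCR was searched. Of the Rb1 matches, both with 2 mismatches, one was in an intron (chr14:73234771-73234790) and 244 bp from a summit, and the other (chr14:73238053-73238072) was in a UTR of Lpar6, the gene that lies inside an Rb1 intron. A match describes the letters only, and binding of p53 was not measured.

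Around the first Cdkn1a start (chr17:29090729-29090975, plus strand, GRCm38.p6) the p53 match stands in a stretch with few CpGs, printed here up to the annotated exon with the cores of the match in capitals.
Cdkn1a, first start: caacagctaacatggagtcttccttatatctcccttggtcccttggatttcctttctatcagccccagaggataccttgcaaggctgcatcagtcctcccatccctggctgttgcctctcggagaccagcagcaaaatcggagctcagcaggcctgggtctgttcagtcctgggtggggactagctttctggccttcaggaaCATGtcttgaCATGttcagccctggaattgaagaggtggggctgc
Other motifs were searched in the same 300 bases on both strands, and matches to different motifs were allowed to overlap. E2F sites, searched as TTTGGCGC or TTTCCCGC, were found in 2 of the 102 OCRs and in 0.582% of all merged OCRs. One of these was in the Cdkn2d promoter OCR, 155 bp before the start (chr9:21291558-21291565), shown with the match in capitals and its neighbouring bases on the minus strand.
Cdkn2d: acctcctcctcTTTCCCGCccgcccgccgg
The other E2F match was in the OCR at the promoter of Faf1, the neighbour of Cdkn2c. AP-1 sites (TGANTCA) were found in 16 member OCRs and in 14.5% of all merged OCRs, GATA sites (AGATAA) in 21 and 18.5%, and RUNX sites (TGTGGTT) in 15 and 14.5%. PU.1 sites (GAGGAAGT) were found in 4 member OCRs and in 7.77% of all. For AP-1 and RUNX the member shares, 15.7% and 14.7%, were close to the shares of all OCRs.

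The depth of the libraries differed. Each library's fold enrichments were multiples of a smallest step, whole within a tolerance of 0.01, which put the background between 4.44 reads (HPC7-2) and 20.4 reads (HPC7-1), and the lists held between 84593 and 132852 peaks. Of the 102 OCRs around the members HPC7-1 had 100, HPC7-6 had 59 and the other libraries had between 65 and 84. All 10 hematopoietic progenitor markers, Kit, Gata2, Runx1 and Spi1 among them, had a promoter OCR in the top 25% of every library. Of the T-cell markers Cd4 and Cd8a had no promoter OCR and Cd3e had one in 2 libraries, whereas 2 of 3 erythroid markers had one in all libraries, and so had 3 of 6 markers from outside blood, none of these in the top 25% of every library.

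Of the 102 OCRs 54 (52.9%) had a peak in all libraries (46.2% of all merged OCRs). A peak in a single library was found for 16 of the 102, beside 25994 of the 144931 merged OCRs. Of these 16 OCRs 14 were in HPC7-1. Own promoters were the best supported class, with 20 of 25 OCRs in all libraries. At promoters of other genes this was 18 of 31, and among distal OCRs, which lie over 3 kb from every annotated start, 17 of 47. One OCR counts in 2 classes, since the ARF promoter also lies within 20 kb of Cdkn2b. Among the OCRs in all libraries the mean percentile had a median of 86.4 at own promoters, 78.7 at promoters of other genes and 62.3 at distal OCRs. For all merged OCRs in all libraries, without regard to class, it was 65.8. The classes were not counted over all merged OCRs, so whether their order is particular to the members was not tested. Since the windows differ in length, OCRs in all libraries were also counted per 100 kb. The 8 genes with a top-ranked promoter had between 6.59 (Rb1, with 12 such OCRs in the longest window) and 15.5 (Cdkn1b). Cdkn2a had 1.66 and Cdkn2b 2.24, and the median of all protein-coding genes was 4.95. The promoter OCR that places the 8 genes in their group is itself counted in these densities, which raises them by selection.

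**Figure D1:**
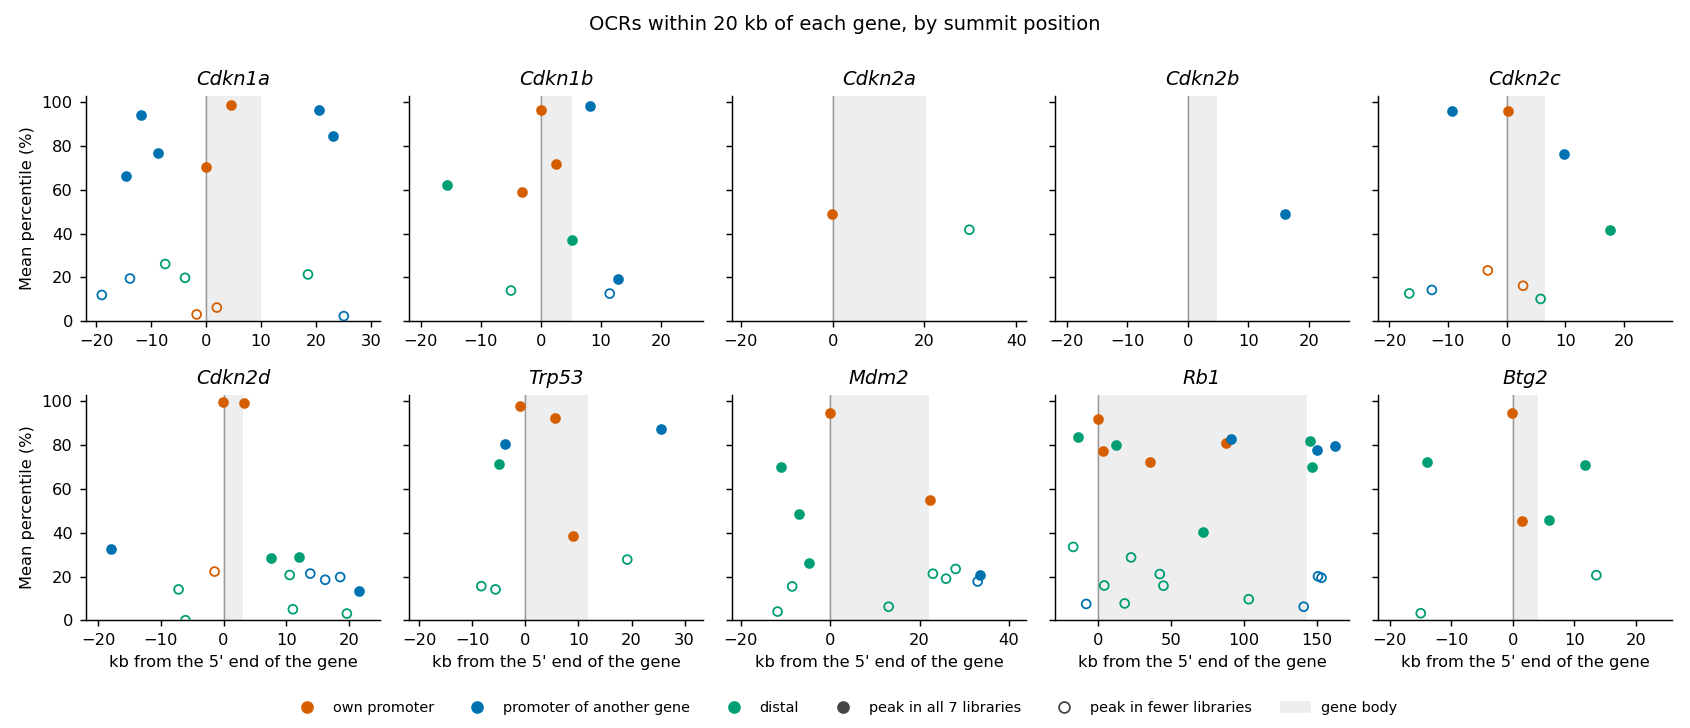
Mean percentile (%) of every OCR within 20 kb of each gene against the position of its summit, in kb from the 5′ end of the gene in the direction of transcription. Colours give the class, filled points have a peak in all 7 libraries and open points in fewer, and the grey band is the gene body. Most open points lie under a percentile of 40, and Cdkn2a and Cdkn2b have 2 and 1 OCRs where Rb1 has 23.

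Cdkn1a (chr17:29090976-29100727, plus strand), the best known p53 target among the kinase inhibitors, had 15 OCRs, 7 of them in all libraries. Its most intense OCR (chr17:29093192-29101374) was 8183 bp long, covered coding sequence and UTR and ran past the end of the gene. This OCR also covered a later Cdkn1a start, listed by RefSeq at position 29093769, whose promoter was CpG-rich and had a peak in all libraries. The percentile was lowest in HPC7-4 at 97.7, had a median of 98.8 and was highest in HPC7-1 at 99.3, so that all libraries placed it close to the top. Fold enrichment was 162 ± 35.1 (SD, n = 7). The OCR at the first start, which holds the p53 match above (chr17:29090152-29091609), ranked lower in all libraries, with a mean percentile of 70.4 ± 7.11 and a range of 60.3 to 79.5. No distal OCR of Cdkn1a was found in all libraries. The strong OCRs beside it were at Trp53cor1 (chr17:29077968-29079939, 94.0 ± 1.15) and at Rab44 (chr17:29110866-29112141, 96.5 ± 0.878).

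Cdkn1b (chr6:134920401-134925513, plus strand) had 9 OCRs, of which 7 were in all libraries. Its promoter OCR (chr6:134919371-134922322), which spans the 5′ UTR and coding sequence, had a percentile of 95.6 in HPC7-2, a median of 96.1 and 97.4 in HPC7-1, and a fold enrichment of 109 ± 17.0 (SD, n = 7). A stronger OCR lay 8.17 kb from the nearest Cdkn1b start, at the start of the noncoding RNA genes Lockd and Gm44238 (chr6:134926602-134930718), with 98.4 ± 0.358. The strongest distal OCR (chr6:134903981-134904996), intergenic and 15.7 kb upstream, had a median percentile of 61.0 and ranged from 54.7 to 74.5. A weaker distal OCR (chr6:134925400-134925969) overlapped the 3′ end of the gene and had its summit beyond that end. It ranged from 5.99 to 52.3, so its rank was poorly fixed between libraries.

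Among the INK4 genes Cdkn2d (p19-INK4d; chr9:21288410-21291407, minus strand) had the most intense promoter of all members. In its promoter OCR (chr9:21289950-21292118) the percentile was 99.8 in the lowest library, 99.8 at the median and 99.9 in the highest. Fold enrichment was 253 ± 49.6 (SD, n = 7), and the promoter stood above 99.1% of protein-coding genes on average. A second OCR of almost the same rank (chr9:21286364-21289355, 99.4 ± 0.209) covered the other end of this short gene, where Kri1 begins. Its distal OCRs were weak by comparison, the strongest (chr9:21279042-21279683, over coding exons of Kri1) ranging from 3.50 to 48.6 and the next (chr9:21283558-21284557, in a Kri1 intron) from 9.52 to 46.2.

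Cdkn2c (p18-INK4c; chr4:109660876-109667189, minus strand) had 1 promoter OCR in all libraries (chr4:109664876-109668806), 3931 bp long and covering both starts. The percentile was lowest in HPC7-6 at 94.5, had a median of 95.7 and was highest in HPC7-1 at 97.0, and fold enrichment was 106 ± 18.5 (SD, n = 7). The only distal OCR in all libraries was 15.9 kb from the nearest start in an intron of Gm12811 (chr4:109649276-109649708), between 26.1 and 57.9. Downstream of the gene an OCR at 9630013D21Rik (chr4:109656885-109657995) had 76.2 ± 6.35.

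Cdkn2a and Cdkn2b lie side by side on the minus strand of chromosome 4, and their neighbourhood was the emptiest of the set. From 20 kb beyond Cdkn2a to 20 kb beyond Cdkn2b (chr4:89254471-89331039, 76.6 kb) there were 2 OCRs. The stronger one (chr4:89294434-89295645, 1212 bp) covered the ARF start at position 89294653 and the first exon of that transcript, and it was found in all libraries. Its percentile was highest in HPC7-7 (62.5) and HPC7-8 (62.3), came to 57.3, 51.9 and 40.2 in HPC7-1, HPC7-4 and HPC7-2, and was lowest in HPC7-5 (35.2) and HPC7-6 (33.4). The libraries thus placed it anywhere from the lower to the upper middle of their lists, with no library near the range of the other promoters. Its fold enrichment was 6.82 ± 1.91 (SD, n = 7). The summit rested on 133 reads in HPC7-1 and on between 28 and 66 reads in the others. Among protein-coding genes the Cdkn2a promoter stood above 41.8% ± 1.22 (SD, n = 7), genes without a peak being counted as lowest.

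The other OCR of the region (chr4:89264759-89264973), 215 bp long, lay 17.3 kb from the Ink4a start, beyond the 3′ end of Cdkn2a in an intron of the noncoding gene Gm12606. It was found in 6 libraries and not in HPC7-5, with percentiles from 28.1 to 56.1. Around the Ink4a start, at position 89282192, no library had a peak within 3 kb, and the nearest OCR was the ARF one, 12242 bp away. For the Cdkn2b start, at position 89311039, the nearest OCR was again that of ARF, 15394 bp away. Cdkn2b thus had a single shared OCR within 20 kb, and 31.2% of protein-coding genes had as few or fewer.

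The stretch without an OCR that holds all of Cdkn2b ran from position 89295646 to 89351057, 55412 bp, and 5.56% of the stretches between neighbouring OCRs were at least as long. Much of it could not have held a peak. The assembly has no known bases for 30100 of these bases, a run of 100 that begins 1178 bp upstream of the Cdkn2b start and a run of 30000 that begins 5761 bp upstream (chr4:89316800-89346799). Over the 25312 known bases, of which 24.7% are marked as repeats against 36.4% of the genome, 11.7% of stretches were as long in known bases. The unknown bases make up 32.1% of the Cdkn2b window and 0.166% of the Cdkn2a window, and the windows of the other members have none. Counted in known bases, the longest stretch touching the region was the 47431 bp between Tgif2-ps1 and the small Gm12606 OCR, and that between the small OCR and ARF had 29460. Since the lists give no coverage between peaks, DNA that was closed and DNA to which no reads could be assigned cannot be told apart.

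**Figure D2:**
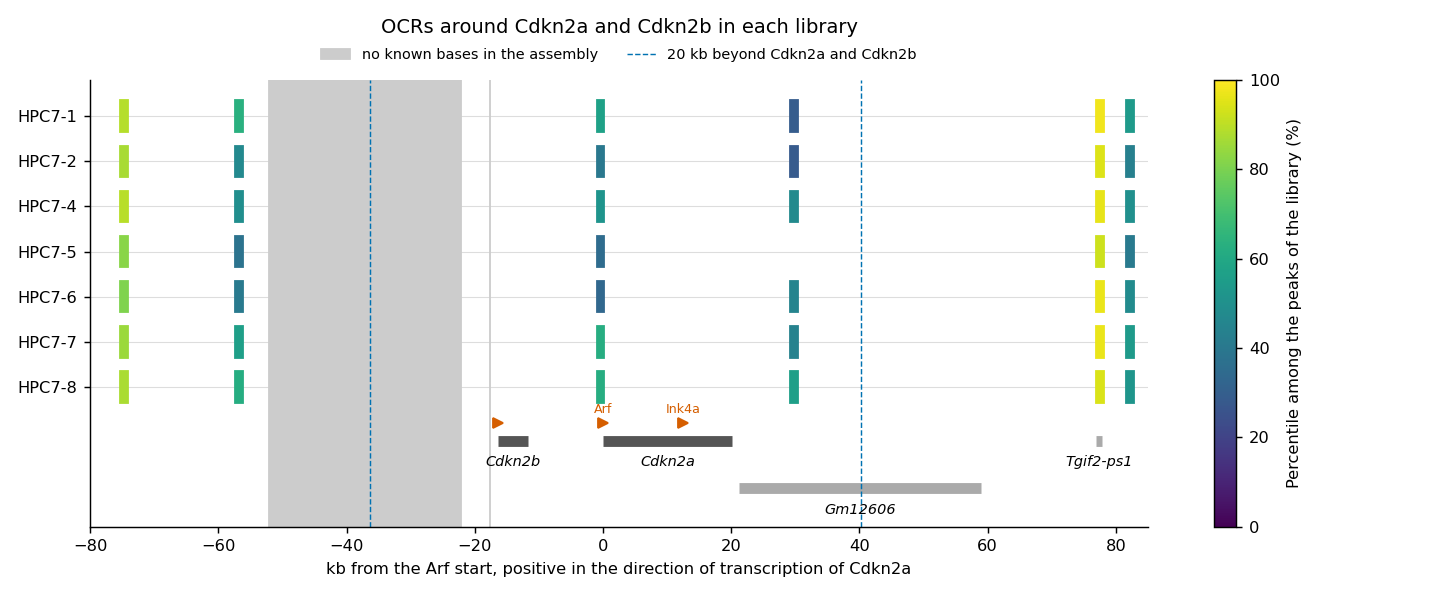
Peaks of each library around Cdkn2a and Cdkn2b by distance in kb from the ARF start, with the percentile (%) of each peak as colour. Bars are drawn at a fixed width around the middle of the OCR, triangles mark the 3 transcript starts, dashed lines the region 20 kb beyond the genes, and grey the bases unknown in the assembly. All libraries have a bar at the ARF start, none has one at the Ink4a or Cdkn2b start, and HPC7-5 lacks the bar in Gm12606.

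From Mtap to Dmrta1, the next protein-coding genes on either side (564 kb), there were 29 OCRs, 16 of them in all libraries. Neither Mtap nor Dmrta1 had a promoter OCR in any library. On the Mtap side the most intense OCR lay on the processed pseudogene Tgif2-ps1 (chr4:89216936-89217327), 77.5 kb from the ARF start, with percentiles from 92.5 to 98.0. It was the strongest of all 29, and 2 of the 29 OCRs overlapped a pseudogene compared with 0.885% of all merged OCRs. Whether reads from the parent gene of the pseudogene contributed was not tested. Beyond Cdkn2b the first OCR, at -57.0 kb from the ARF start (chr4:89351058-89351913), had a mean percentile of 50.9 ± 9.91, and the next (chr4:89368794-89369847) had 85.8 ± 3.35. Further OCRs in all libraries with means over 75 followed at -164 kb (chr4:89458524-89459302, 75.1 ± 5.11), at -221 kb (chr4:89514485-89515614, 79.3 ± 2.49) and at -357 kb (chr4:89651574-89652432, 84.7 ± 2.63).

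Trp53 (chr11:69580359-69591873, plus strand), which encodes p53, had 9 OCRs, 6 of them in all libraries. Its promoter OCR (chr11:69578420-69582126) was shared with Wrap53, the gene that starts on the opposite strand. The percentile was lowest in HPC7-4 at 96.7, had a median of 98.0 and was highest in HPC7-5 at 98.5, with a fold enrichment of 137 ± 32.2 (SD, n = 7). A second strong OCR lay in an intron, 2696 bp before an internal start (chr11:69584529-69586438), with 92.2 ± 1.94 and a range of 89.9 to 94.6 that did not overlap that of the promoter. The strongest distal OCR was in an intron of Wrap53 (chr11:69575124-69575830), 4921 bp upstream, with a range of 64.1 to 81.6.

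Mdm2 (chr10:117688875-117710758, minus strand) had 13 OCRs, 6 of them in all libraries. Its promoter OCR (chr10:117708895-117711583) had a percentile of 93.7 in HPC7-2, a median of 94.6 and 95.3 in HPC7-8, and a fold enrichment of 87.9 ± 11.7 (SD, n = 7). Upstream of it stood 3 intergenic distal OCRs found in all libraries, at 10.9 kb (chr10:117721392-117721960, 53.8 to 81.3), at 6.99 kb (chr10:117717491-117718038, 38.1 to 57.3) and at 4.61 kb (chr10:117715064-117715790, 3.25 to 47.0). All 3 hold an AP-1 match in the 300 bases at the summit, and the middle one also holds the p53 match, 2 bp from its summit. The nearest of the 3 was the weakest, and its range did not overlap that of the farthest. An OCR that overlapped the UTR at the 3′ end of the gene (chr10:117688178-117688908) had 55.2 ± 10.8. Its summit lay beyond the gene and 3.11 kb from the nearest Mdm2 start, and it counts as an own promoter only because its edge is within 3 kb of that start.

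Rb1 (chr14:73183673-73325822, minus strand), the longest gene of the set, had 23 OCRs, 12 of them in all libraries. Its promoter OCR (chr14:73324446-73327155) ranked from 90.3 in HPC7-6 through a median of 91.3 to 93.5 in HPC7-1, with a fold enrichment of 66.9 ± 12.1 (SD, n = 7), and it was the weakest of the 8 top-ranked promoters. With flanks of 20 kb and promoters of 3 kb, its 3 most intense distal OCRs were the strongest of the set. Its other distal OCRs in all libraries were lower, at 70.1 and 40.4 on average. The first was intergenic and 13.9 kb upstream (chr14:73339436-73340180, 79.3 to 87.6), the next lay beyond the 3′ end in an intron of Rcbtb2 (chr14:73180449-73181486, 76.1 to 86.2), and the third was in an Rb1 intron (chr14:73313298-73313852, 75.2 to 85.3). Inside the gene an OCR at Lpar6 (chr14:73237567-73240046) had 81.0 ± 3.38 and one beside it (chr14:73234246-73234937) had 82.6 ± 2.93.

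Btg2 (chr1:134075170-134079120, minus strand), an antiproliferative gene that p53 induces, had 7 OCRs, 5 of them in all libraries. Its promoter OCR (chr1:134078303-134080244) had a percentile of 94.1 in HPC7-5, a median of 94.3 and 96.5 in HPC7-8, and a fold enrichment of 92.0 ± 16.2 (SD, n = 7). The gene body also held a weaker OCR over coding sequence (chr1:134077409-134078020, 19.5 to 68.4). Distal OCRs in all libraries lay 14.0 kb upstream (chr1:134092806-134093711, 65.0 to 79.4), 11.8 kb downstream of the start (chr1:134067038-134067661, 66.9 to 78.2) and 5.82 kb downstream (chr1:134073012-134073572, 32.8 to 56.2).

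The order of promoter intensity was compared within each library. Each gene was given its highest promoter peak. By mean percentile the order ran from Cdkn2d through Cdkn1a, Trp53, Cdkn1b, Cdkn2c, Btg2, Mdm2 and Rb1 to Cdkn2a. The place of Cdkn1a rests on its OCR of 8183 bp, which covers a later Cdkn1a start. The OCR at the first Cdkn1a start had 70.4, below the Rb1 promoter at 91.8. All 36 pairs of the 9 genes were tested by an exact permutation test that flips the signs of the library differences (two-sided, n = 7, smallest possible p = 0.0156), adjusted by Benjamini-Hochberg over the pairs, and 34 passed at 0.05. In 32 pairs the difference had the same sign in every library. Pairs of other protein-coding genes were not compared, so whether these counts are particular to the members was not tested. Of the 8 pairs of neighbours in the order 6 passed, each with an exact adjusted p of 0.0176 and the same sign in 7 of 7 libraries. Cdkn2d exceeded Cdkn1a by 1.20 ± 0.597 percentile points (SD), and Rb1 exceeded Cdkn2a by 42.8 ± 11.6. Between these, Cdkn1a exceeded Trp53 by 0.889 ± 0.379, Trp53 exceeded Cdkn1b by 1.503 ± 0.885, Cdkn2c exceeded Btg2 by 1.16 ± 0.6248 and Mdm2 exceeded Rb1 by 2.70 ± 1.03. The neighbours that did not pass were Cdkn1b and Cdkn2c, 0.323 ± 0.751 points apart (exact adjusted p = 0.328, higher in 5 of 7 libraries), and Btg2 and Mdm2, 0.306 ± 0.637 points apart (exact adjusted p = 0.257, higher in 4 of 7). Cdkn1b over Btg2 and Cdkn2c over Mdm2, each positive in 6 of 7 libraries (exact adjusted p = 0.0331), lost the call in 6 of the 7 fits that left out 1 library (exact adjusted p up to 0.0662), the first keeping it only without HPC7-8 and the second only without HPC7-6. With a library left out, such a pair can pass only if the library of opposite sign is the one removed. The sizes changed little: Btg2 minus Cdkn1b stayed between -1.81 and -1.31 points and Cdkn2c minus Mdm2 between 1.31 and 1.72.

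**Figure D3:**
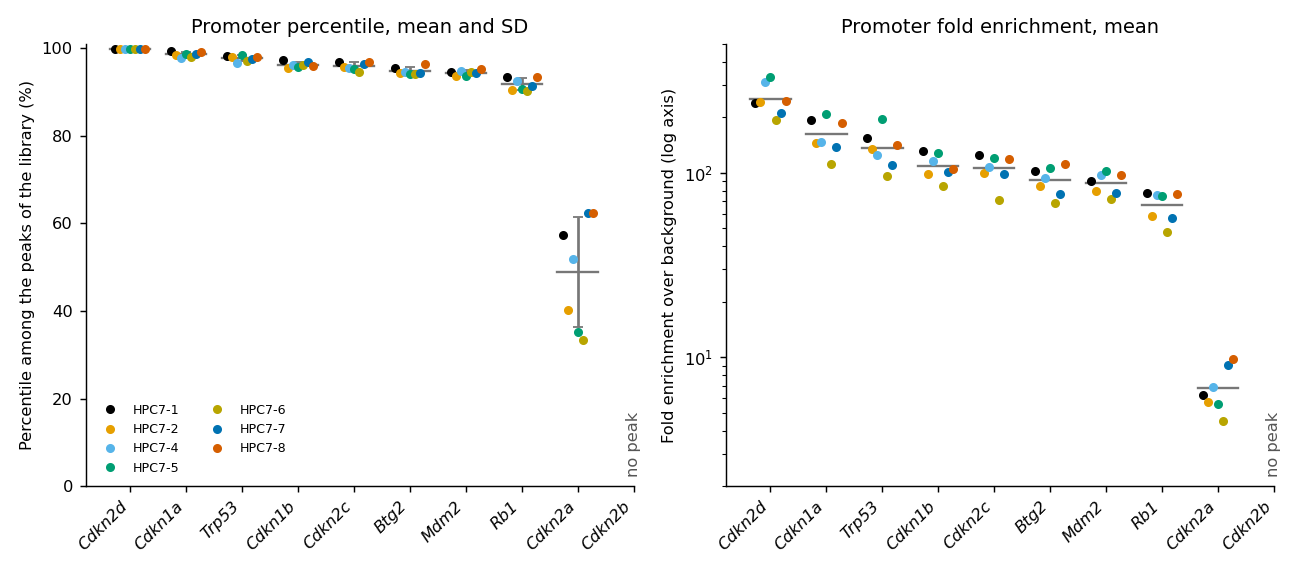
Promoter percentile (%) and fold enrichment (log axis) of each member in the 7 libraries, as points by library, with grey lines for the mean and bars for the SD of the percentile. The 8 highest genes lie above 90 in all libraries, Cdkn2a between 33.4 and 62.5, and Cdkn2b has no peak.

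The genes are spread over several chromosomes, with Cdkn2a, Cdkn2b and Cdkn2c together on chromosome 4. The upper end of promoter fold enrichment was higher on some chromosomes. At the 90th percentile of protein-coding genes the promoter fold enrichment of chromosome 17, which carries Cdkn1a, was 1.36 times that of the median autosome, and for chromosome 1 with Btg2 it was 1.40 times, compared with 0.914 to 1.02 times for the other chromosomes of the set. When the percentile was taken among the peaks of the same chromosome, an alternative chosen after seeing the data, the lead of Cdkn1a over Trp53 turned to -0.276 points (exact adjusted p = 0.215). Cdkn1a over Cdkn1b then came to 0.352 points (exact adjusted p = 0.289) and Cdkn1b against Trp53 to -0.629 points (exact adjusted p = 0.153), whereas Cdkn1b against Cdkn2c passed at 0.801 points (exact adjusted p = 0.0352). Every pair with Cdkn2d, Rb1 or Cdkn2a kept its sign and its call under this choice.

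Promoters were then set against the strongest distal OCR of the same window. Of the members 7 had both in all libraries, and in each of them the promoter was higher in 7 of 7 libraries (the same exact test, adjusted p = 0.0156, the smallest possible). The promoter value was the highest peak near any start of the gene. The same comparison was not made over all protein-coding genes, so whether this is particular to the members was not tested. The difference was widest for Cdkn2d, at 70.7 ± 15.9 percentile points (SD, n = 7), followed by Cdkn2c with 54.1 ± 13.3 and Cdkn1b with 33.9 ± 6.09. Trp53, Mdm2 and Btg2 had differences of 26.3 ± 6.45, 24.4 ± 9.01 and 22.3 ± 4.03. For Rb1 it was 7.83 ± 2.08 points, the smallest under these settings. Which distal OCR could be used depended on the settings. With a −log10 q of at least 5, Cdkn2d had no distal OCR left in all libraries and 6 members were compared, and with flanks of 50 kb its difference fell to 14.1 points and that of Mdm2 to 2.43, both still above 0 (exact adjusted p = 0.0156). Cdkn1b came to 16.4 points with flanks of 50 kb and to 59.3 with flanks of 10 kb, and Mdm2 to 45.8 with the latter. With promoters of 1 kb Trp53 came to 5.55 points, below Rb1, so the order of the differences holds for the 20 kb flanks and 3 kb promoters used here. When the promoters of other genes in the window were allowed as the strongest other OCR, also chosen after seeing the data, 8 members could be compared. The Cdkn1b promoter was then lower than the Lockd OCR in 7 of 7 libraries (-2.18 ± 0.514 points, exact adjusted p = 0.0179). The Cdkn2c promoter and that of Faf1 (chr4:109675932-109677789) differed by -0.177 ± 0.590 points (exact adjusted p = 0.531, higher in 3 of 7). The promoters of Cdkn2d, Trp53, Mdm2, Rb1 and Btg2 stayed above. Cdkn1a, which had no distal OCR to compare, exceeded the Rab44 OCR by 2.10 ± 0.517 points in 7 of 7 libraries (exact adjusted p = 0.0179). Each of the 41 differences called here, between members or between promoter and distal OCR, had the same sign of its mean in the libraries with either prefix of the peak names.

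**Figure D4:**
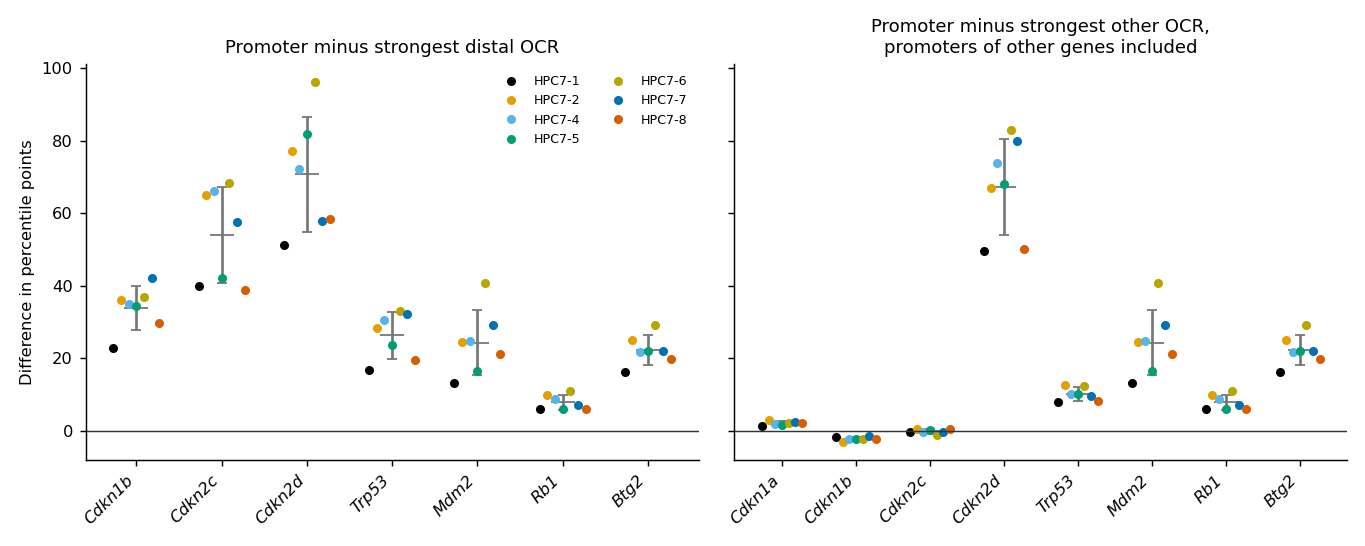
Promoter percentile minus that of the strongest distal OCR (left) and of the strongest other OCR with promoters of other genes included (right), in percentile points per library, with the mean and SD in grey. All points on the left are above 0, and on the right those of Cdkn1b are below 0 and those of Cdkn2c on either side of it.

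The genes that work with the members were looked up in lists of the pathway. Of 56 genes 51 (91.1%) had a promoter OCR in all libraries and 46 (82.1%) had one in the top 25% of every library, beside 60.8% and 50.3% of all protein-coding genes. The genes named with a promoter OCR were chosen after their values were seen. All 10 kinase inhibitors and partners (such as Cdk4, Cdk6 and the D-type cyclins) and all 10 genes of the RB and E2F families had one in all libraries. E2f3 (99.7 ± 0.0595) and Ccnd3 (99.4 ± 0.187) were close to Cdkn2d, and Cdkn1c, the third inhibitor of its family, stood lower at 73.7 ± 4.57. In the list of p53 family and regulators Trp63, a relative of p53 in epithelia, had no promoter OCR, whereas the kinases Atm (99.6 ± 0.0763) and Chek2 (99.2 ± 0.254) had intense ones. Of 16 p53 targets 13 had a promoter OCR in all libraries, among them Ccng1 (98.7 ± 0.435), Bbc3 (95.8 ± 0.585) and Pmaip1 (62.2 ± 7.09). Plk2 had one in 5 libraries, Perp in 1 and Fas in none. Of the BTG and TOB genes, relatives of Btg2, 4 of 5 had one and Btg3 had none. All 7 Polycomb genes known to act on Cdkn2a had a promoter OCR in all libraries, between 72.9 ± 6.10 for Cbx7 and 99.1 ± 0.455 for Rnf2.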

How the data were processed

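Bulk ATAC-seq of 7 HPC7 libraries was used. Reads were trimmed (Cutadapt), mapped to mm10 (BWA-mem) and passed to MACS2 library by library by the authors, with versions not given in the sources used here. Each deposited list holds, per peak, the fold enrichment at the summit, the −log10 p and −log10 q, and a score that is 10 times the −log10 q. Results rest on positions, summits, fold enrichment and −log10 q, and the −log10 p served only to check the background reads. The percentile within a library removes its overall scale but depends on how many weak peaks the library lists.

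Peaks overlapping by 1 bp were merged across libraries into OCRs and placed on GENCODE M21 with pandas 2.3.3 and numpy 2.4.6 in Python 3.11.15, with scipy 1.17.1 for the check of depth and matplotlib 3.10.9 for figures. Merging and tests were tested on simulated data (bedtools 2.31.1). A promoter was 3 kb around any transcript start, and a gene was given its highest peak there. Pairs were compared within libraries by exact sign flips with Benjamini-Hochberg adjustment at 0.05, so p-values measure only the spread between these libraries. All 10 genes were named, with the 3 most intense distal OCRs of each among those in all libraries, every OCR of the Cdkn2a and Cdkn2b region, and the pathway genes without a promoter OCR in all libraries. Members and lists were chosen with earlier results of these data known. Promoter sequences are RefSeq's (GRCm38.p6) and matched 9 of the 10 genes, Rb1 being the other, and other sequences were read from the same assembly. The settings tried instead were lists cut to equal length, a −log10 q minimum of 5, promoters of 1 kb, flanks of 10 and 50 kb, 50% coverage of the OCR, log10 fold enrichment, motifs in the whole OCR and each library left out, with 3 more added after the data were seen. The score column was left out. One of the marker lists is not reported here.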

Additional observations from a re-analysis of the deposited data

Results flagged for a closer look

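HPC7-1 stood far from the other libraries in 4 of 33 measures compared, the gap to the nearest library exceeding Dixon's 95% critical value for 7 libraries. Chance alone singles out about 1 in 20 such groups. HPC7-1 had a peak in 14 of the OCRs around the members that no other library listed, and the next library had 1 such OCR, a gap of 0.929 of the whole range. Its background was 20.4 reads and the next highest 7.45 (0.811 of the range). The lowest listed summit held 35 reads against 17 in the next library (0.783), and the lowest listed fold enrichment was 1.68 against 2.13 (0.593). The part of depth in the 14 OCRs was not tested. Without HPC7-1, 9 members had a promoter OCR in all libraries, as with it. The library measures were added to the comparison after the data were seen.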

How the results depend on the processing

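Of 711 values recomputed under alternatives, 679 kept their direction and side of the threshold or stayed within the spread between libraries. With flanks of 50 kb there were 195 OCRs, 98 of them in all libraries. Searching whole OCRs raised the number with a match to 6 for E2F, 25 for AP-1, 38 for GATA, 30 for RUNX and 13 for PU.1, more bases being searched. The shares of all merged OCRs were then 1.53% for E2F, 23.4% for AP-1, 30.9% for GATA, 22.5% for RUNX and 11% for PU.1, beside 5.88%, 24.5%, 37.3%, 29.4% and 12.7% of the member OCRs. Without unknown bases, an alternative chosen after seeing the data, the stretch that holds Cdkn2b came to 25312 bp. The differences that reversed did so under the other alternatives added after seeing the data: Cdkn1a minus Trp53 came to -0.276 points on the same-chromosome percentile, and against any other OCR of the window the promoter of Cdkn1b came to -2.18 and that of Cdkn2c to -0.177. Why Cdkn1a and Trp53 changed order was not tested. With 1 library left out, 9 members kept a promoter OCR in all libraries, 96 to 102 OCRs lay in the windows, 54 to 57 of them in all libraries, 32 to 33 pairs passed, 7 distal comparisons passed, 2 OCRs lay in the Cdkn2a and Cdkn2b region, and its longest stretch was 55412 to 55692 bp. With flanks of 10 kb Cdkn2c had no distal OCR to compare, and the other distal differences that moved by over 1.5 times, each with the same sign and call, stand beside their results. No paired analysis was possible because there is 1 group, with no other group to pair libraries with, and the differences reported are between OCRs of the same library. HPC7-6 had the fewest of the 102 OCRs, 59, and the shortest list, though HPC7-2 and HPC7-5 had fewer background reads. A peak missing from a list is not evidence of closed chromatin.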
